A study of Mus musculus with 48 samples.

Results

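Costimulatory receptors and ligands give T cells the second signal that decides whether recognition of an antigen leads to activation. Here 10 genes were followed, chosen by symbol, in T cell subsets and antigen-presenting cells of mouse gliomas: Cd80, Cd86, Icosl, Cd40, Cd28, Icos, Tnfrsf4, Tnfrsf9, Tnfrsf18 and Tnfsf11. All 10 are among the 20300 genes of the table of mixed tumor cells, and 9 of them are among the 14363 genes of the table of CD11b+ cells, where Tnfsf11 is not listed. Of the other genes of the same pathway, 26 and 23 were listed in both tables and were used for comparison.

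Cells of the mouse glioma line GL261 had received, by retrovirus, either a control hairpin RNA (shNC) or one that targets Selp (shSELP), and were implanted into the brains of male C57BL/6 mice aged 6 weeks. Only the implanted cells carry a hairpin, and the host mice are of the same strain in both groups. For the mixed libraries, CD11b+ cells, the remaining CD45+ cells and the other cells of the tumor were combined at equal parts, which sets the shares of cell types, and each group has 2 libraries (shNC 1, shNC 2, shSELP 1 and shSELP 2, the order of all values that follow). The CD11b+ cells have 1 library per group. The labels give day 16 after implantation for the mixed libraries and day 21 for the CD11b+ libraries, while the methods of the study describe the isolation of CD11b+ cells at day 17 from a pool of 3 brains per group and name neither of those days for it. The labels name version 2 of the droplet kit and the methods version 3. For 7 entries of the CD11b+ shSELP library a description line speaks of the negative control, so directions in CD11b+ cells rest on the other labels.

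The library shNC 1 held 2289 cells with 22945972 unique molecular identifiers (UMIs, counted molecules), shNC 2 held 2297 with 22626413, shSELP 1 held 2293 with 17398121 and shSELP 2 held 2293 with 25589350. Median depth per cell was 9015, 7579, 5887 and 9388 UMIs. The CD11b+ libraries held 2862 cells each, with 12628177 UMIs in the shNC and 11445676 in the shSELP library and medians of 4032 and 3685. Cells of 500 or more genes and up to 10% mitochondrial UMIs were kept, which left 8726 of 9172 mixed and 5535 of 5724 CD11b+ cells. Among mixed libraries 5 cell barcodes were shared, and 3 between the CD11b+ libraries.

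Selp, the targeted gene, had 17, 25, 21 and 21 UMIs in the whole mixed libraries, which is 0.741, 1.11, 1.21 and 0.821 CPM (counts per 1e6 UMIs of the library or class). In tumor-like cells it had 1, 1, 0 and 1 UMI, so these counts cannot show a knockdown, and labels alone assign the groups. In endothelial-like cells it had 60.2, 57.8, 9.08 and 14.2 CPM.

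Mixed libraries did not hold the same cells. The library shSELP 1 stood apart with 351 endothelial-like cells against 22, 32 and 78 in shNC 1, shNC 2 and shSELP 2, with 328 microglia-like cells against 89, 114 and 121, and with the lowest depth. Its microglia-like cells came mostly from a cluster led by Siglech and P2ry12 (227 cells against 44, 44 and 77), while a cluster led by Cst7 gave 101 cells against 45, 70 and 44. The library shSELP 2 had 304 macrophage-like cells in a cluster led by Inhba and Nos2 against 81, 86 and 79 in the others. Tumor-like cells numbered 293, 199, 52 and 40. Leaving out each library in turn is therefore given wherever it changed a result below.

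T cells need a signal through Cd28 beside that of the antigen receptor, and its ligands Cd80 and Cd86 sit on antigen-presenting cells. Later and more local signals come from Icos, a relative of Cd28, and from receptors of the tumor necrosis factor family such as OX40 (Tnfrsf4), 4-1BB (Tnfrsf9) and GITR (Tnfrsf18), which recruit TRAF adaptors and drive survival and cytokine output. Dendritic cells in turn receive help through Cd40, whose ligand is carried by activated CD4 T cells, and in gliomas the antigen-presenting pool also includes microglia of the brain and macrophages derived from blood monocytes.

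Clusters were named from fixed markers, and cells were then gated by single genes, none of them among the 10. T-like cells with a UMI of Cd8a or Cd8b1 and none of Cd4 or Foxp3 (CD8 T cells) numbered 236, 209, 244 and 146. Conventional CD4 T cells, with Cd4 and no Cd8a, Cd8b1 or Foxp3, numbered 89, 100, 81 and 178, and Foxp3 T cells, with Foxp3 and no Cd8a or Cd8b1, numbered 48, 39, 31 and 47. In 70, 107, 55 and 95 T-like cells the gates found no subset. The 8 T cell markers were detected in CD8 T cells of every library, with a summed level of 7218, 7477, 8474 and 7788 CPM. One cluster of 55, 65, 59 and 49 T-like cells was led by the mast cell genes Mcpt2, Tpsb2, Cma1 and Cpa3 and detected 8 of 8 T cell markers. Macrophage-like cells numbered 912, 738, 500 and 790. Dendritic-cell-like cells were gated as mature, with at least 2 of Ccr7, Fscn1, Ccl22 and Cacnb3 (56, 96, 68 and 129 cells), then as cDC1, with at least 2 of Xcr1, Clec9a, Wdfy4 and Cadm1 (28, 22, 19 and 23), and then as cDC2, with at least 1 of Cd209a, Clec10a and Mgl2 (26, 41, 15 and 24). Clusters without a name held 9.67%, 13.9%, 10.5% and 16.3% of cells, of which 0.366%, 0.597%, 0.457% and 0.644% of cells lay in 2 clusters left unnamed by a limit on markers of a second class that was set after seeing the data. The doublet caller Scrublet marked 0.871% of the mixed cells, which were kept.

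The first question was where the ligands lie among antigen-presenting cells. These levels compare clusters and gates by mean and standard deviation over 4 libraries (SD, n = 4) as a description without a test, unless an adjusted p is given. Counts at the 3′ end of transcripts do not compare levels between genes, so each gene was read across classes only.

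Cd80, a ligand of Cd28 and of the inhibitory receptor Ctla4, was highest in mature dendritic cells at 213, 234, 152 and 206 CPM (mean 201 ± 35.2, SD, n = 4). It followed in cDC2 at 112 ± 20.8, cDC1 at 70.0 ± 9.20, macrophage-like cells at 43.4 ± 3.78 and microglia-like cells at 21.0 ± 0.517 CPM. No neighbours in this order overlapped within 1 SD. Microglia-like cells were the most even class, with 20.9, 20.6, 21.7 and 20.6 CPM. In NK-like cells Cd80 was at 0 in 3 of 4 libraries, and in tumor-like cells it was at 0.675 ± 0.875 CPM. When every cell was thinned to 2000 UMIs, 37.5%, 28.0%, 26.5% and 32.5% of mature dendritic cells carried a Cd80 UMI (64.7% to 75.0% without thinning), against 0% of tumor-like cells (0% to 2.5%).

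Cd86, the other ligand of Cd28, was more widely spread. Its order was cDC2 with 522, 705, 392 and 641 CPM (565 ± 138), mature dendritic cells with 450.1, 539, 508 and 550.1 (512 ± 44.9), microglia-like cells with 383, 362, 396 and 405 (386 ± 18.6), cDC1 with 309, 306, 344 and 477 (359 ± 80.4) and macrophage-like cells with 289, 264, 307 and 288 (287 ± 17.6). Mature dendritic cells and cDC2 did not differ beyond their spread, nor did cDC1 and either neighbour. Microglia-like cells lay above macrophage-like cells in each of the 4 libraries. After thinning, 48.3%, 53.5%, 51.4% and 52.1% of microglia-like and 42.6%, 40.8%, 47.1% and 39.0% of macrophage-like cells had a Cd86 UMI, where 0% to 2.08% of tumor-like cells did. Both ligands were found together in 25%, 15.1%, 16.2% and 18.3% of thinned mature dendritic cells, in 7.69%, 17.1%, 6.67% and 20.8% of cDC2, which were above mature cells in shNC 2 and shSELP 2, and in 0%, 4.76%, 15.8% and 0% of cDC1. In macrophage-like cells that share was 3.98%, 5.32%, 5.05% and 3.19%, and in microglia-like cells 3.37%, 0.877%, 1.57% and 2.48%.

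Icosl, the ligand of Icos, separated microglia-like from macrophage-like cells. Microglia-like cells had 45.7, 40.1, 38.5 and 36.3 CPM (40.1 ± 4.01) and macrophage-like cells 9.78, 8.94, 8.28 and 5.70 (8.17 ± 1.76), with no overlap. Mature dendritic cells at 48.8 ± 12.7, cDC2 at 41.6 ± 18.1 and microglia-like cells did not differ beyond their spread, and cDC1 at 25.5 ± 9.06 overlapped cDC2. Between the microglia-like clusters, the one led by Siglech and P2ry12 had 72.7, 44.2, 45.4 and 53.3 CPM of Icosl and the one led by Cst7 34.0, 38.9, 30.7 and 20.8 CPM. The former was higher in each library.

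Cd40, through which CD4 T cells license antigen-presenting cells, had 192, 199, 279 and 230 CPM in mature dendritic cells (225 ± 39.7). It was at 175 ± 63.9 in cDC2, 99.2 ± 19.2 in macrophage-like, 75.8 ± 42 in cDC1 and 50.1 ± 5.68 CPM in microglia-like cells, and each neighbouring pair in this order overlapped within 1 SD. Endothelial-like cells had 21.2 ± 6.52 CPM, and CD8 T cells 1.3 ± 1.22. Here the microglia-like clusters ran the other way than for Icosl, with 15.8, 14.7, 9.29 and 10.2 CPM in the cluster led by Siglech and P2ry12 and 69.4, 68.5, 80.4 and 84.1 CPM in the cluster led by Cst7. Among macrophage-like cells, a cluster led by Chil3 and Slfn4 had the highest Cd40 over all libraries at 235 CPM, with 226, 206, 214 and 278 CPM. A cluster led by Dcstamp and Il1r2 followed at 152 CPM (196.5, 81.6, 237 and 130) and was higher in shSELP 1, and the 3 largest macrophage-like clusters had 81.2 to 102 CPM. The cluster led by Chil3 and Slfn4 also had 487 CPM of Cd86 and 73.3 CPM of Cd80.

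**Figure D1:**
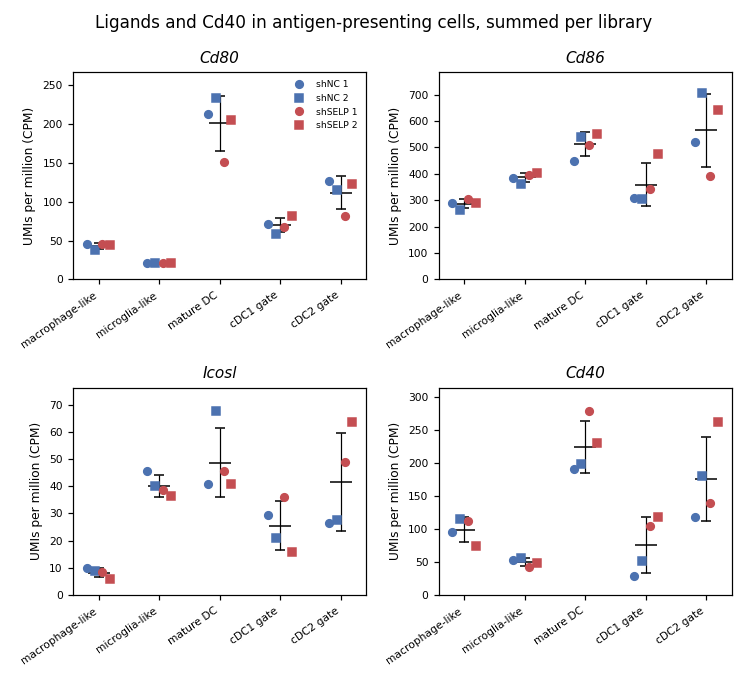
Levels in CPM of Cd80, Cd86, Icosl and Cd40 (vertical axes, from 0) in 5 classes of antigen-presenting cells, with 1 point per library (blue shNC, red shSELP; circle library 1, square library 2) and bars for the mean and SD over the 4 libraries. Cd80 ran from 201 CPM in mature dendritic cells to 21.0 in microglia-like cells, while Icosl was lowest in macrophage-like cells at 8.17.

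The second comparison asked which members set mature dendritic cells apart from the cDC1 and cDC2 gates as 1 group, within each library. It was fitted with library as a block in edgeR, a test across all genes with Benjamini-Hochberg adjustment. Of 8 members tested, 6 were higher and 0 lower in mature cells at an adjusted p under 0.05, where 18.2% of all 5437 genes tested were higher and 18.2% lower. The median log2 fold change of the members was 1.90, beside -0.01 for all genes. Members with few UMIs outside mature cells, such as Tnfrsf4 and Tnfrsf9, could pass the filter on low counts only through the mature cells, so this count supports nothing by itself, and for them UMIs are given instead of the fit.

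The members with the largest differences were receptors known from T cells. Tnfrsf4 had 168, 277, 148 and 216 CPM in mature dendritic cells (202 ± 57.5), 5.33, 0, 0 and 0 in cDC1 and 0 in cDC2 of every library. Over the 4 libraries this was 652 UMIs against 2, a ratio of 236 with a counting interval of 65.1 to 1954, and both UMIs of the other gates lay in shNC 1. Tnfrsf9 had 142, 177, 91.0 and 234 CPM in mature dendritic cells and at most 7.96 CPM in any library of the other gates, with 562 UMIs against 7 and a ratio of 58.2 (28.0 to 145). Both receptors were higher in mature cells of 4 of 4 libraries, and in mature cells the shNC and shSELP libraries overlapped.

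Tnfrsf18 had 123, 234, 125 and 213 CPM in mature dendritic cells (174 ± 58.3), above cDC1 at 37.3 ± 9.35 and cDC2 at 17.5 ± 9.12. Its log2 fold change was 2.63 (standard error, SE, 0.212, adjusted p = 3.43e-10, edgeR). Icos had 38.8, 45.5, 3.79 and 49.8 CPM, with 121 UMIs against 13 in the other gates and a ratio of 6.74 (3.80 to 13), and shSELP 1 was low. The other gates had 16.6, 1.53, 2.91 and 1.58 CPM of Icos, so most of their UMIs lay in shNC 1, which lowered the ratio. Cd80 rose by a log2 fold change of 1.17 (SE 0.148, adjusted p = 7.14e-07) and Cd40 by 0.88 (SE 0.169, adjusted p = 0.000205), each higher in 4 of 4 libraries. The Cd40 difference was 0.56 (adjusted p = 0.0509, edgeR) in cells thinned to 2000 UMIs. Icosl did not pass with 0.61 (adjusted p = 0.0574, edgeR), and it did with 0.74 without shSELP 1 (adjusted p = 0.0357), with 0.81 without shSELP 2 (adjusted p = 0.0475) and with 0.73 without Scrublet calls (adjusted p = 0.0233), while it was 0.27 without shNC 2 (adjusted p = 0.538). Cd86 had 0.16 (adjusted p = 0.327, edgeR), and 0.59 (adjusted p = 0.0111) where cells were gated singly instead of by cluster.

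Markers of T cells were present in the mature dendritic gate. Of the 8 T cell markers, 8, 8, 7 and 8 were detected there, with a summed level of 293, 346, 77.7 and 393 CPM, against 56.4, 12.3, 8.73 and 19 CPM in the other gates. Cd5 was at 0 in shSELP 1. When every dendritic cell with a UMI of any T cell marker was left out, an alternative added after seeing the data that removed 7, 18, 5 and 18 mature cells and 10, 6, 3 and 5 others, Tnfrsf4 was at 104, 231, 119 and 142 CPM in mature cells and at 0 in the other gates of every library. It then had 39, 125, 55 and 158 UMIs in mature cells. Tnfrsf9 was at 106, 107, 67.0 and 185 CPM, Tnfrsf18 at 119, 174, 108 and 152 CPM (other gates 20.9 ± 5.67) and Cd40 at 204, 225, 296 and 252 CPM. The log2 fold changes of Tnfrsf18 and Cd40 were 2.76 and 0.94. Icos fell to 1, 0, 0 and 1 UMI in the mature cells that remained.

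In thinned cells, 21.4%, 33.3%, 23.5% and 28.6% of mature dendritic cells had a Tnfrsf4 UMI (35.7% to 47.9% without thinning). No thinned cDC1 or cDC2 did (0% to 3.57% in cDC1 and 0% in cDC2 without thinning), nor did more than 0.347% of tumor-like cells. Median depths of the unthinned cells were 7279, 6093, 6515 and 8611 UMIs in mature dendritic cells and 13568, 13032, 10117 and 15614 in cDC1. They were 8066, 7867, 7658 and 10040 in cDC2, and 16453, 17040, 15349 and 13159 in tumor-like cells.

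**Figure D2:**
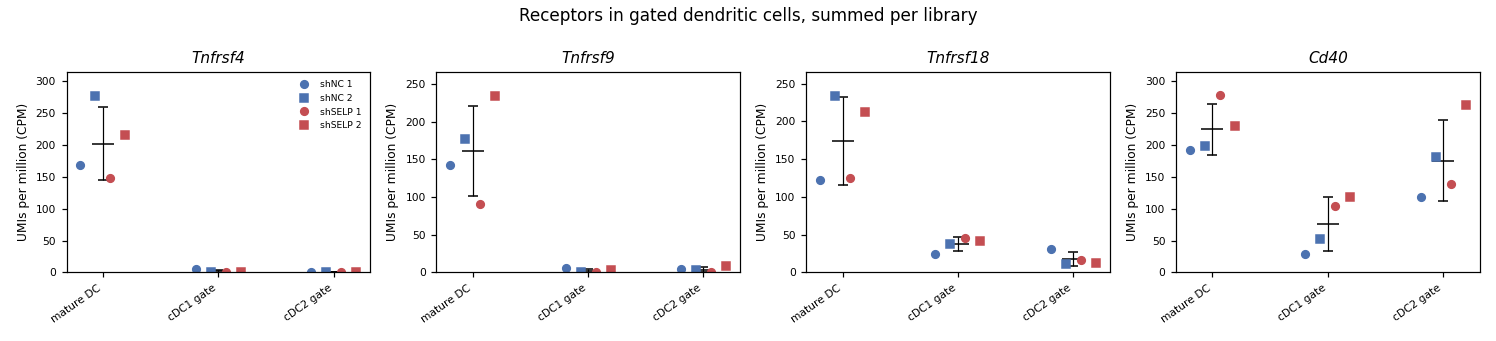
Levels in CPM of Tnfrsf4, Tnfrsf9, Tnfrsf18 and Cd40 (vertical axes, from 0) in gated dendritic cells, with 1 point per library (blue shNC, red shSELP; circle library 1, square library 2) and bars for the mean and SD over the 4 libraries. Tnfrsf4 and Tnfrsf9 lay at 148 to 277 and 91.0 to 234 CPM in mature cells and close to 0 in the other gates, while Cd40 in cDC2 overlapped mature cells.

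Of the other costimulation genes, 8 of 11 tested were higher and 1 lower in mature cells, beside 18.2% of all genes in each direction. DESeq2 called 6 of the 11. Genes with few UMIs outside mature cells, such as Cd70, could pass the filter only through the mature cells, so this count supports nothing by itself. Cd70, the ligand of Cd27, had 219 UMIs against 1, a ratio of 159 with a counting interval of 28.2 to 6293. Cd200 had 1160 UMIs against 13, a ratio of 64.6 (37.6 to 122), and Tnfrsf11a, the receptor of Tnfsf11, had 117 UMIs against 10, a ratio of 8.47 (4.45 to 18.1). Icam1 had a log2 fold change of 1.62. The T cell genes Ctla4 and Cd2 were also called in edgeR, with 280 UMIs against 37 and 112 against 19, but not in DESeq2 (adjusted p = 0.0857 and 0.0838). Without dendritic cells that carried a T cell marker, mature cells held 4, 12, 2 and 11 UMIs of Ctla4 and 0, 2, 2 and 0 of Cd2, and their Ctla4 level of 11.8 ± 7.49 CPM overlapped that of the other gates (14.4 ± 7.62). Of 14 genes of the TRAF and NF-kB pathway downstream of these receptors, 12 of 13 tested were higher in mature cells and 0 lower, and of 10 genes of proximal antigen receptor signalling, 1 of 5 tested was higher and 2 were lower. Ligands of the receptors were also read: Tnfsf4, the ligand of Tnfrsf4, had 28.0, 30.3, 17.1 and 16.1 CPM in mature dendritic cells, Tnfsf9, the ligand of Tnfrsf9, 142, 175, 250 and 140 CPM, and Tnfsf18, the ligand of Tnfrsf18, 0 in dendritic cells.

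The third comparison asked how T cell subsets differ, again within libraries. Foxp3 T cells are regulatory T cells by their defining gene. Against conventional CD4 T cells, 4 of 7 members tested were higher in Foxp3 T cells (8% of all 5265 genes tested were higher) and 1 was lower (7.6%). The lower member, Tnfsf11, could pass the filter only through the conventional CD4 T cells, so its call supports nothing by itself. The median log2 fold change of the members was 0.46, beside -0.01 over all genes, and the 821 genes called in all were 535 without shSELP 2.

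Tnfrsf18, a receptor long used as a marker of regulatory T cells, had 1222, 1302, 1097 and 1287 CPM in Foxp3 T cells (1227 ± 93.5) and 633, 514, 518 and 501 in conventional CD4 T cells (542 ± 61.5). The log2 fold change was 1.14 (SE 0.117, adjusted p = 8.7e-09, edgeR). Tnfrsf4 had 2169.7, 1876, 2238 and 2373 CPM in Foxp3 and 1361, 1132, 1177 and 1028 in conventional CD4 T cells, a log2 fold change of 0.84 (SE 0.112, adjusted p = 1.24e-06, edgeR). Both receptors were higher in Foxp3 T cells of 4 of 4 libraries without overlap between subsets.

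Tnfrsf9, which marks recently activated cells, had 1132, 1537, 1809 and 1490.1 CPM in Foxp3 and 751, 824, 676 and 868 in conventional CD4 T cells, with a log2 fold change of 0.87 (SE 0.126, adjusted p = 4.74e-06, edgeR). Icos had 915, 888, 1186 and 1076 CPM against 785, 673, 614 and 778, with a log2 fold change of 0.46 (SE 0.125, adjusted p = 0.00952, edgeR). It was higher in 4 of 4 libraries, but the call ended without shSELP 1, where the difference was 0.30 (adjusted p = 0.15, edgeR), and with thinned cells at 0.37 (adjusted p = 0.0876, edgeR). Cd28 had 246, 300, 275 and 298 CPM in Foxp3 and 303, 287, 303 and 287 in conventional CD4 T cells and did not pass (-0.12, adjusted p = 0.632, edgeR).

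Tnfsf11 (RANKL), a ligand that activates dendritic cells and osteoclast precursors through Tnfrsf11a, ran against the receptors. It had 580, 529, 571 and 660 CPM in conventional CD4 T cells (585 ± 54.5) and 32.6, 25, 40.5 and 2.42 in Foxp3 T cells (25.1 ± 16.4). In all this was 27 UMIs in Foxp3 T cells against 2099, a ratio of 0.03675 with a counting interval of 0.0242 to 0.0536. Foxp3 T cells of shSELP 2 were lowest. Because Tnfsf11 could pass the filter only through the conventional CD4 T cells, UMIs are given instead of the fit. CD8 T cells had 91.4, 37.0, 54.5 and 42.1 CPM, and NK-like cells had a UMI in shNC 2 only. In thinned cells 47.7%, 35.7%, 41.3% and 46.1% of conventional CD4 T cells had a Tnfsf11 UMI (58.0% to 69.1% without thinning), against 6.98%, 2.70%, 6.45% and 0% of Foxp3 T cells and 0% to 1.15% of NK-like cells. Median depth was 4585, 6335, 4944 and 7570 UMIs in conventional CD4 T cells, 3958, 5114, 6011 and 6453 in Foxp3 T cells, and 2576, 3322, 3343 and 4978 in NK-like cells.

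Of the other costimulation genes, 3 of 15 tested were higher in Foxp3 T cells and 6 lower, beside 8% and 7.6% of all genes. Cd40lg, the ligand of Cd40, had 2 UMIs in Foxp3 T cells and 271 in conventional CD4 T cells, a ratio of 0.0211 with a counting interval of 0.00254 to 0.0769. Tnfsf8 had 12 UMIs against 535, a ratio of 0.0641 (0.0329 to 0.113), and Cd200 46 against 388, a ratio of 0.339 (0.244 to 0.461). Cd226 had 13 against 119, a ratio of 0.312 (0.16 to 0.55), and was not called in DESeq2 (-1.98, adjusted p = 0.0577). Genes with few UMIs in Foxp3 T cells, such as Cd40lg, Tnfsf8 and Cd226, could pass the filter only through the conventional CD4 T cells. The count of lower genes therefore supports nothing by itself. Cd27 was higher by a log2 fold change of 2.02, and by 1.26 without shSELP 2, and the inhibitory receptor Ctla4 by 1.01. Of the TRAF and NF-kB genes 1 of 13 tested was higher and 4 lower, and of the proximal signalling genes 0 of 10 were higher and 4 lower, beside the same shares of all genes.

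CD8 T cells were below conventional CD4 T cells for most members: of 8 tested, 5 were lower (8.04% of all 7989 genes tested were lower) and 1 was higher (6.95%), with a median log2 fold change of -0.72 beside 0.02 over all genes. The 1197 genes called in all were 681 without shSELP 2 and 778 without shNC 2. Tnfrsf4 showed a steep step, with 356, 136, 107 and 98.2 CPM in CD8 T cells, where shNC 1 was highest, below every conventional CD4 value. The log2 fold change was -2.83 (SE 0.193, adjusted p = 1.51e-07, edgeR). Tnfsf11 fell by 3.32 on the log2 scale (SE 0.181, adjusted p = 1.46e-08), Tnfrsf18 by 0.95 (SE 0.113, adjusted p = 3.83e-05) and Icos by 0.75 (SE 0.133, adjusted p = 0.00118, edgeR), each in 4 of 4 libraries. Tnfrsf18 had 361, 278, 198 and 226 CPM in CD8 T cells and Icos 312, 420, 446 and 402.

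Cd28 had 177, 244, 195 and 192 CPM in CD8 T cells, with a log2 fold change of -0.45 (SE 0.118, adjusted p = 0.0182, edgeR). It was lower in 4 of 4 libraries, but the call ended without shNC 1 (-0.37, adjusted p = 0.0674), without shSELP 2 (-0.44, adjusted p = 0.121), with thinned cells (-0.38, adjusted p = 0.108), with cells gated singly (-0.39, adjusted p = 0.0501) and in DESeq2 (-0.45, adjusted p = 0.0672). Tnfrsf9 had 812, 568, 412 and 524 CPM in CD8 T cells and did not pass (-0.36, adjusted p = 0.0657, edgeR), being higher than in conventional CD4 T cells in shNC 1. Without shNC 1 it passed at -0.55 (adjusted p = 0.00278, edgeR), as it did with thinned cells (-0.49, adjusted p = 0.0116) and with no filter beyond 1 UMI (-0.34, adjusted p = 0.0204).

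Cd86 was the member higher in CD8 T cells, at 21.8, 38.1, 62.2 and 48.1 CPM against 21.4, 26.6, 13.2 and 33.8 in conventional CD4 T cells (log2 fold change 0.84, SE 0.258, adjusted p = 0.0396, edgeR). The difference was large in shSELP 1 and small in shNC 1, and the call ended without shNC 2 (0.93, adjusted p = 0.0896), without shSELP 1 (0.51, adjusted p = 0.101), without shSELP 2 (0.99, adjusted p = 0.116) and in 4 other settings. CD8 T cells held 7, 7, 7 and 6 of 8 macrophage markers with 74.7, 137, 94.4 and 180 CPM in sum, led by Lyz2 or Ccr2, with F10 at 0 in shNC 1, shNC 2 and shSELP 2 and Chil3 at 0 in both shSELP libraries. Conventional CD4 T cells also carried Lyz2, at 51.7, 72.1, 18.8 and 58.25 CPM against 33.4, 36.4, 23.1 and 91.5 CPM in CD8 T cells. It was thus higher in conventional CD4 T cells of both shNC libraries and in CD8 T cells of both shSELP libraries. The part of such RNA in the Cd86 level was tested only by leaving out the 2, 2, 0 and 6 CD8 T cells with at least 3 macrophage markers (0.79, adjusted p = 0.0648, edgeR). In thinned cells 6.55%, 9.36%, 10.1% and 11.8% of CD8 T cells had a Cd86 UMI (16.5% to 33.6% without thinning), against 6.98%, 3.06%, 6.25% and 3.93% of conventional CD4 T cells (8.64% to 17.4%), whose share was the higher one in shNC 1, and 0% to 1.89% of NK-like cells (0% to 5.46%), which were less deep. Cd80 did not pass (-0.69, adjusted p = 0.0797, edgeR).

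Of the other costimulation genes 4 of 17 tested were higher and 10 lower in CD8 than in conventional CD4 T cells, beside 6.95% and 8.04% of all genes. Cd40lg had 2 UMIs against 271, a ratio of 0.00377 with a counting interval of 0.000454 to 0.0137. Tnfsf8 had 46 UMIs against 535, a ratio of 0.0439 (0.0317 to 0.0594), and Cd70 36 against 149, a ratio of 0.123 (0.0832 to 0.178). The log2 fold changes were -2.72 for Cd200 and -2.11 for Slamf6. Tnfrsf25 rested on 6 UMIs in CD8 and 50 in conventional CD4 T cells, a ratio of 0.0612 (0.0215 to 0.143). Like Cd40lg, Tnfsf8 and Cd70, it could pass the filter only through the conventional CD4 T cells, so the count of lower genes supports nothing by itself. Of the TRAF and NF-kB genes 0 of 14 tested were higher and 4 lower, and of the proximal signalling genes 1 of 10 was higher and 3 lower, beside the same shares of all genes. In conventional CD4 T cells Cd40lg had 67.8, 74.7, 92.3 and 78.3 CPM.

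NK-like cells gave a further reference. They had 260.4, 380, 292 and 326 CPM of Tnfrsf9 and 207, 198, 192 and 190.3 CPM of Tnfrsf18, but 6.68, 0, 0 and 0 CPM of Tnfrsf4. For Cd28 they had 71.3 ± 27.0 and for Icos 49.4 ± 25.4 CPM, below every T cell subset. The order Foxp3, conventional CD4, CD8 and NK-like held for Icos, Tnfrsf4 and Tnfrsf18 means, with CD8 and NK-like cells within 1 SD of each other for Tnfrsf18. For Tnfrsf9 the order was the same, with conventional CD4 and CD8 T cells within their spread. For Cd28, conventional CD4 T cells (295 ± 9.30) and Foxp3 T cells (280 ± 25) did not differ beyond it.

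Receptors were also counted in the same cells. Of thinned Foxp3 T cells, 58.1%, 51.4%, 48.4% and 51.1% carried UMIs of Icos, Tnfrsf4, Tnfrsf9 and Tnfrsf18 together, against 32.6%, 30.6%, 17.5% and 24.7% of conventional CD4 and 6.11%, 4.43%, 1.69% and 4.17% of CD8 T cells. Tnfrsf4 alone was found in 97.7%, 89.2%, 96.8% and 87.2% of Foxp3 T cells, 90.7%, 84.7%, 80.0% and 75.8% of conventional CD4 T cells and 32.3%, 17.2%, 11% and 11.8% of CD8 T cells, and in no NK-like cell. Without thinning these shares were 96.8% to 100%, 92.7% to 95%, 23.8% to 56.8% and 0% to 2.22%.

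**Figure D3:**
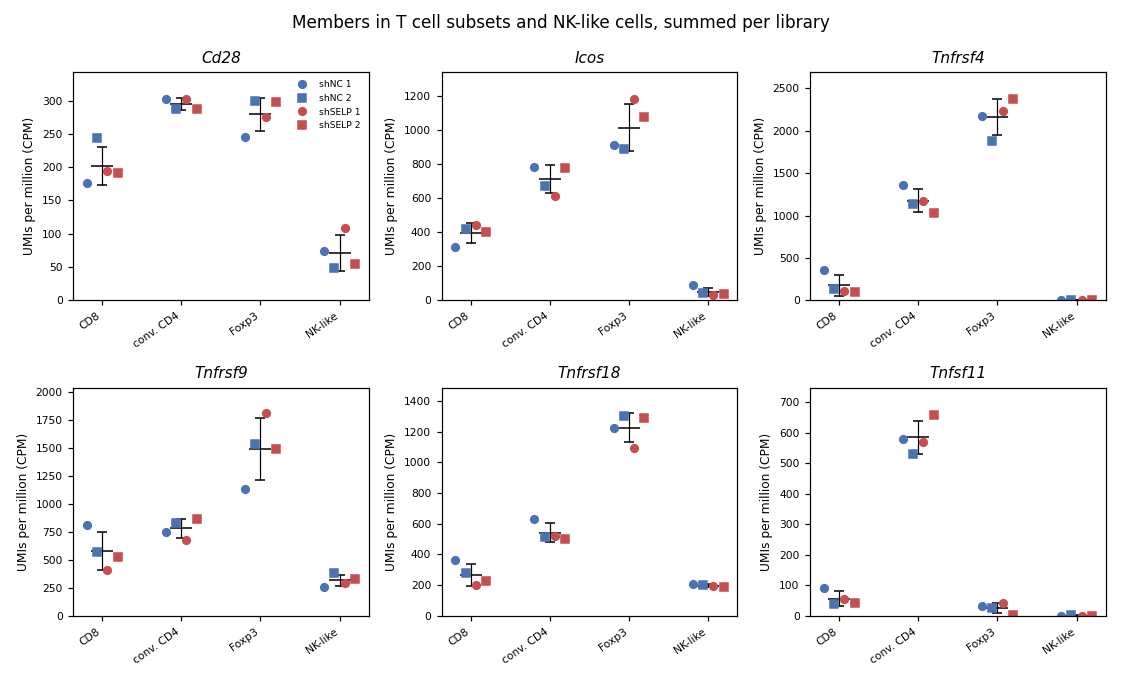
Levels in CPM of 6 members (vertical axes, from 0) in T cell subsets and NK-like cells, with 1 point per library (blue shNC, red shSELP; circle library 1, square library 2) and bars for the mean and SD over the 4 libraries. Tnfrsf4, Tnfrsf9, Tnfrsf18 and Icos were highest in Foxp3 T cells, and Tnfsf11 in conventional CD4 T cells at 529 to 660 CPM.

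The fourth comparison asked whether knockdown of Selp in the tumor cells went with a change of the members in any class. The libraries were treated as separate samples, but the methods give a pool of 3 brains per group and leave unstated if library 1 and library 2 shared it. So p measures the spread between these libraries, and whether it holds any spread between mice is not known. No member passed an adjusted p of 0.05 in edgeR in any of the 6 classes. In CD8 T cells 8 members were tested and 0 called, where 0.0245% of 8153 genes were called, 858 passed 0.05 without adjustment of p and DESeq2 called 12. In conventional CD4 T cells 0 of 8 were called against 0% of 6324 genes (266 at an unadjusted p under 0.05, DESeq2 0), and in Foxp3 T cells 0 of 5 against 0% of 3926 genes (195, DESeq2 0). In macrophage-like cells 0 of 8 members were called where 0.873% of 10878 genes were (1662 at an unadjusted p under 0.05, DESeq2 185), in microglia-like cells 0 of 5 where 1.27% of 8571 were (1492, DESeq2 79), and in dendritic-cell-like cells 0 of 9 where 0.194% of 7727 were (532, DESeq2 17). The median log2 fold changes of the members were -0.23, -0.01, 0.19, 0.01, -0.02 and 0.21 in these 6 classes, beside medians of all genes within 0.01 of 0. Of the members 4 had an unadjusted p under 0.05 in CD8 T cells, 1 in macrophage-like and 1 in dendritic-cell-like cells, and DESeq2 called 0 in each class. The shares of called genes themselves rested on single libraries. The 2 genes called in CD8 T cells became 0 without shSELP 1 and 392 without shNC 2, and the 0 in conventional CD4 and Foxp3 T cells became up to 31 without shNC 1 and 55 without shSELP 2. The 95 in macrophage-like cells became 0 without shSELP 1 and 222 without shNC 2, the 109 in microglia-like cells 24 without shNC 2 and 263 without shSELP 1, and the 15 in dendritic-cell-like cells 145 without shNC 2.

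The 4 members at an unadjusted p under 0.05 in CD8 T cells were Tnfrsf4, Tnfrsf18, Tnfrsf9 and Cd86. The 4 libraries are given above for Tnfrsf4, whose shNC libraries (356 and 136 CPM) lay above the shSELP libraries (107 and 98.2). The log2 fold change was -1.21 (SE 0.337, adjusted p = 0.3, edgeR), and it rested on shNC 1: without that library it was -0.38 (adjusted p = 0.905), and without shNC 2 it passed at -1.72 (adjusted p = 3.5e-15). It also passed with no filter beyond 1 UMI (-1.23, adjusted p = 9.45e-09, edgeR). Tnfrsf18 (-0.55, adjusted p = 0.326, edgeR) and Tnfrsf9 (-0.52, adjusted p = 0.377, edgeR) were also lower in both shSELP libraries and passed without shNC 2, at -0.70 (adjusted p = 0.0194) and -0.73 (adjusted p = 0.0112). Without shNC 1 they were -0.37 and -0.26 (adjusted p = 0.899 and 0.998, edgeR). Cd86 was higher in both shSELP libraries (0.94, adjusted p = 0.338, edgeR), and passed without shNC 2 at 1.40 (adjusted p = 0.000438) and with no filter beyond 1 UMI at 0.93 (adjusted p = 0.0249), but was 0.55 without shNC 1 (adjusted p = 0.871) and 0.55 in thinned cells (adjusted p = 0.723). Of 8 dendritic cell markers, 5, 6, 3 and 4 were detected in CD8 T cells with 209, 114, 48.2 and 60.1 CPM in sum. Of these Ccr7 moved with the receptors (203, 102, 35 and 54.1 CPM), a gene that T cells also express, with 703, 480, 693 and 594 CPM in conventional CD4 T cells. Fscn1 did not follow them (2.32, 2.89, 4.89 and 1.34 CPM), and Flt3 was at 0 in every library. The part of dendritic cell RNA in these differences was not tested. In thinned CD8 T cells the shNC 1 share with a Tnfrsf4 UMI of 32.3% stood apart from the other 3 libraries.

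Whether CD8 and conventional CD4 T cells responded differently was tested with an interaction term. Of 8 members 0 were called, where 0% of 8703 genes were (301 at an unadjusted p under 0.05, DESeq2 1). Tnfrsf4 had a difference of -0.89 on the log2 scale (SE 0.296, adjusted p = 1, edgeR), which passed without shNC 2 at -1.43 (adjusted p = 0.0174) and was -0.33 without shNC 1. In conventional CD4 T cells Tnfrsf4 itself differed by -0.17 and in Foxp3 T cells by 0.19 (adjusted p = 0.997 and 0.983, edgeR). Cd28 in conventional CD4 T cells had a log2 fold change of 0.00 with an interval of -0.32 to 0.33 (SE 0.165).

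In the antigen-presenting cells, Cd40 in dendritic-cell-like cells had 118, 159, 194 and 212 CPM, so that both shSELP libraries lay above both shNC libraries. The log2 fold change was 0.54 (SE 0.172, adjusted p = 0.594, edgeR), and 0.39 without shNC 1, 0.74 without shNC 2 and 0.26 in thinned cells. Mature cells, which carry more Cd40, made up 43.8%, 52.7%, 59.1% and 68.6% of this class, the order of its Cd40 levels, and the part of this share in the difference was not tested. In mature cells both shSELP libraries also lay above both shNC libraries, and in cDC2 the groups overlapped. In cDC1 the libraries also separated (29.3, 52.1, 104 and 118 CPM), from 19 to 28 cells each. In microglia-like cells, whose clusters differed in share between libraries, Cd40 ran the other way with 53.3, 55.7, 42.8 and 48.8 CPM. Within the cluster led by Cst7, which has more Cd40, both shSELP libraries were higher (69.4, 68.5, 80.4 and 84.1 CPM). In the cluster led by Siglech and P2ry12 both were lower (15.8, 14.7, 9.29 and 10.2 CPM). The part of the cluster shares in the microglia-like difference was not tested. Cd86, at the levels given above, was higher in both shSELP libraries of microglia-like cells and of cDC1. Cd80 in mature dendritic cells was higher in the shNC libraries. With 2 libraries per group, separations of this kind, here and below, are a description only, and the share of all genes that separate was not counted. Icosl in macrophage-like cells was lower in both shSELP libraries (-0.41, adjusted p = 0.424, edgeR), and in microglia-like cells as well (-0.24, adjusted p = 0.545, edgeR). In both classes the share of cells from each cluster differed between libraries. A macrophage-like cluster led by Pclaf and Cdca3 had 16.3 CPM of Icosl over all libraries and held 75, 37, 7 and 7 cells. The cluster led by Inhba and Nos2, largest in shSELP 2, had 5.37 CPM. The part of these shares in the difference was not tested. In cDC2 Icosl ran the other way, with 26.3, 27.4, 49.0 and 63.7 CPM, and in the cDC1 and cDC2 gates as 1 group with 28.2, 24.5, 40.8 and 34.8 CPM. Over all dendritic-cell-like cells its log2 fold change was 0.02 (adjusted p = 0.992, edgeR). Cd86 and Cd80 in macrophage-like cells had log2 fold changes of 0.18 and 0.16, with intervals of -0.03 to 0.38 and -0.09 to 0.41. Icos in macrophage-like cells, at 0.176 to 1.27 CPM, had -1.59 (adjusted p = 0.236, edgeR) and -2.57 without shSELP 2. Of other T cell genes in this class, Cd8a (4.07, 1.56, 0.880 and 0.146 CPM) and Cd28 (2.17, 0.727, 0.352 and 0.219 CPM) were lower in both shSELP libraries. So were Cd4 (0.543, 1.56, 0.352 and 0.512 CPM) and Foxp3 (0.0905, 0.208, 0 and 0 CPM). Trac (6.07, 2.18, 4.75 and 2.27 CPM), Cd3e, Cd8b1 and the sum of the 8 T cell markers (30.6, 12.4, 19 and 7.82 CPM) did not separate the groups. The part of T cell RNA in the Icos difference was not tested. The test of a difference in response between macrophage-like and microglia-like cells called 0 of 8 members, where 1.6% of 10576 genes were called, with 1 member at an unadjusted p under 0.05 and 0 called by DESeq2. The 169 genes called in all were 71 without shNC 1, 64 without shNC 2 and 288 without shSELP 1.

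Of the other costimulation genes edgeR called 0 of 13, 17, 9, 15, 8 and 15 tested in CD8, conventional CD4 and Foxp3 T cells and in macrophage-like, microglia-like and dendritic-cell-like cells. It also called 0 of the TRAF and NF-kB genes and 0 of the proximal signalling genes in these comparisons and in both tests of a difference in response. Over these 8 comparisons 6617 of 64858 tests of all genes had an unadjusted p under 0.05 in edgeR (10.2%), beside 8 of 59 for the members (13.6%), 25 of 107 for the other costimulation genes (23.4%), 9 of 108 for the TRAF and NF-kB genes (8.33%) and 5 of 57 for the proximal signalling genes (8.77%), while 0 of each list were called by DESeq2. In DESeq2 the shares at an unadjusted p under 0.05 were 3.64% of all genes, 8.47% for the members, 10.3%, 1.85% and 5.26%. In macrophage-like cells Tnfrsf9 had 19.2, 4.36, 7.40 and 16.1 CPM, and within the cluster led by Inhba and Nos2, which shSELP 2 fills most, 54.9, 9.08, 35.4 and 34.4 CPM. In that cluster the shSELP libraries lay between the shNC libraries.

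CD11b+ cells, from 1 library per group and by their labels another day, allow no test, and intervals cover counting error only. Macrophage-like cells numbered 2170 in the shNC and 2369 in the shSELP library, microglia-like cells 239 and 217, and T-like cells 0 and 0. A macrophage-like cluster led by Jun and Dusp2 and another led by Ighm are part of that class. Scrublet marked 0.0181% of these cells and has not worked there. Of all genes with enough UMIs, 13.7% of 9269 in macrophage-like and 12.3% of 4978 in microglia-like cells differed by at least 1.5-fold, and the median log2 ratio in macrophage-like cells was 0.11, which TMM scaling moved to 0.02.

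Icosl was the member of at least 50 UMIs past that fold in macrophage-like CD11b+ cells, with 170 and 88 UMIs. It had 16.5 CPM (95% interval 14.1 to 19.2) in the shNC and 9.25 CPM (7.42 to 11.4) in the shSELP library, a ratio of 0.561 (0.429 to 0.73). The direction rests on the labels followed, since a description line of some shSELP entries speaks of the negative control. By these labels it is that of the mixed macrophage-like cells, where the difference did not pass. In microglia-like cells the ratio was 0.885 (0.568 to 1.37). Cd86 had 2304 and 2187 UMIs with a ratio of 1.03 (0.97 to 1.09), Cd40 672 and 635 with 1.02 (0.918 to 1.14), and Cd80 282 and 232 with 0.892 (0.746 to 1.07). Their intervals hold a ratio of 1.

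Tnfrsf4 had 2 UMIs in shNC and 37 in shSELP macrophage-like CD11b+ cells, a ratio of 20.1 (5.17 to 172), and Icos had 0 and 10, where 3 UMIs stand for 0.291 CPM in shNC. Markers of T cells moved with both: 5 of 8 were detected in shNC with 1.55 CPM in sum and Cd3e, Trac and Cd6 at 0, and 8 of 8 in shSELP with 9.78 CPM, the most abundant being Trbc1 at 2.73. Their part in the difference was not tested. Tnfrsf9 (34 and 38 UMIs) and Tnfrsf18 (36 and 24 UMIs) had ratios of 1.21 (0.743 to 1.98) and 0.723 (0.412 to 1.25), and Cd28 had 4 UMIs in each.

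The members also share features of position. On mm10, Tnfrsf4 (chr4:156013843-156016612) and Tnfrsf18 (chr4:156026164-156028895) lie 9551 bases apart on the plus strand with 0 protein-coding genes between them, and Tnfrsf9 (chr4:150914562-150946102, plus strand) is on the same chromosome. Cd28 (chr1:60716800-60773359) and Icos (chr1:60977927-61000320) lie on the plus strand with 204567 bases and Ctla4 between them. Cd80 (chr16:38455561-38496335, plus strand) and Cd86 (chr16:36603869-36666081, minus strand) have 1789479 bases and 25 protein-coding genes between them. Icosl (chr10:78069302-78083913, plus strand), Cd40 (chr2:165055627-165072948, plus strand) and Tnfsf11 (chr14:78277445-78308043, minus strand) have no other member on their chromosome. Other genes overlap Tnfrsf18 (Gm16008, antisense), Tnfrsf9 (Camta1, opposite strand) and Icos (Gm37039, same strand), so their counts carry some uncertainty.

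Over 64 sums of 16 classes in 4 libraries and 11343 genes, the genes most like each member by Pearson correlation of log2 CPM, which follows cell classes and is given without p, were Bcl2a1a (0.801), AA467197 (0.794) and Antxr2 (0.756) for Cd80, Ms4a6c (0.891), Slamf7 (0.89) and Aif1 (0.885) for Cd86, and Bcl2a1a (0.809), Rasa4 (0.79) and Ifi207 (0.762) for Icosl. Cd40 was most like Rasa4 (0.89), Bcl2a1a (0.854) and Ifi205 (0.852). Cd28 was most like Cd247 (0.983), Cd3d (0.979) and Cd2 (0.978), and Icos like Trac (0.983), Cd3d (0.981) and Cd3e (0.98). Among the receptors of the tumor necrosis factor family, Tnfrsf4 was most like Sv2c (0.929), Cd5 (0.919) and Il2ra (0.905), Tnfrsf9 like Trbc2 (0.94), Cd2 (0.939) and Cd247 (0.938), and Tnfrsf18 like Rhof (0.936), Cd2 (0.925) and Cd247 (0.906). Tnfsf11 was most like Gldc (0.925), Ccl1 (0.923) and Themis (0.911). Between members, Cd28 and Icos correlated at 0.97 and Cd86 and Cd40 at 0.80.

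RefSeq (GRCm38.p6, 300 bases around each start) held 1 promoter for each of 5 members and 2 for Tnfrsf9. Those of Tnfrsf4 (chr4:156013445-156013744), Tnfrsf18 (chr4:156026072-156026371) and Tnfrsf9 (chr4:150927749-150928048), all plus strand, are shown because the 3 receptors were higher together in Foxp3 T cells and in mature dendritic cells. The other promoter of Tnfrsf9 (chr4:150919905-150920204, plus strand) holds 0 matches and is not shown. Searched on both strands were AP-1 (TGANTCA, in 7.81% of 32851 promoters), NF-kB (0.411%), GAS (TTCNNNGAA, 8.3%) and RBPJ (TGTGGGAA, 1.86%). Capitals mark the matches, which are AP-1 and GAS in the shown promoter of Tnfrsf9 and GAS in Tnfrsf18, and Cd80 also holds AP-1. For NF-kB only a strict form was searched, which had 0 matches in the promoters of members. Other forms of NF-kB letters were not searched, so the letters in lower case may still hold them. A match describes letters and not a bound site.
Tnfrsf4: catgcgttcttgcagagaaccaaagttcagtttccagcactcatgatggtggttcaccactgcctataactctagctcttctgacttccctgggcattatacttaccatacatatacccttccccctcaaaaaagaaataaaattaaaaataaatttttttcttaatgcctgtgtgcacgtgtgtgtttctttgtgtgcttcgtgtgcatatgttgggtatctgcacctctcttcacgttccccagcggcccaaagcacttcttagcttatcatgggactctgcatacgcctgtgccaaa
Tnfrsf18: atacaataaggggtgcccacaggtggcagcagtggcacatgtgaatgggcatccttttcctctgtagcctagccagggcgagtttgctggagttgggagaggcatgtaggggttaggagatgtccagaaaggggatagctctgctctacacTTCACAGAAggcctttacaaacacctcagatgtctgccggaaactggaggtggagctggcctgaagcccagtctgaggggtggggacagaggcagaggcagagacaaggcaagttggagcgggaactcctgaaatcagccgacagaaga
Tnfrsf9: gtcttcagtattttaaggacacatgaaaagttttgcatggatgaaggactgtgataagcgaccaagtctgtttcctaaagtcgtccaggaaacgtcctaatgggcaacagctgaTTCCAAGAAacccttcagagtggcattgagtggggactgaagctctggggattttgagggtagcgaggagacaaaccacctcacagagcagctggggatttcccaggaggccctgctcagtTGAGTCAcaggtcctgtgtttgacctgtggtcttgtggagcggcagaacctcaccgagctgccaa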

How the data were processed

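UMI counts per gene and cell, whole numbers without normalization, were deposited by the authors for 6 libraries after alignment to mm10 with Cell Ranger 1.3. Members and lists were chosen with earlier results of these data known. Cells of 500 or more genes and up to 10% mitochondrial UMIs were clustered with Seurat 5.3.0 in R 4.3.3 on 2000 variable genes, from which the 36 members and other costimulation genes were kept out, at a resolution of 0.8 with 12 (mixed) or 8 (CD11b+) principal components. Clusters led by genes of a different class were split again at 0.5. A cluster was named by the class with most fixed markers detected in at least 25% of its cells, at least 3, and stayed unnamed where a second class had more than 4, a limit set after seeing the data, or where leading genes belonged to another class. Scrublet in scanpy 1.11.5 ran with an expected rate of 0.05.

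UMIs were summed per library and class and tested with edgeR 4.0.16 (quasi-likelihood F test after filterByExpr and TMM scaling) and, as an alternative, DESeq2 1.42.0, with a call at an adjusted p under 0.05. Comparisons of subsets and of responses took library as a block. Intervals of log2 fold changes are 1.96 standard errors, and those of counts and shares are exact (Poisson or Clopper-Pearson, 95%) and cover counting error only. The limit for a count of 0 was 3 UMIs. CD11b+ libraries were compared by ratio, past a fold of 1.5 from at least 50 UMIs. Likeness used log2(CPM + 10) of genes with at least 200 UMIs. Named were the 10 members whatever their values, of the other costimulation genes called in a comparison at most the 6 with the largest log2 fold change, and 3 like genes per member. Lists held the other costimulation genes (26), TRAF and NF-kB genes (14), proximal signalling genes (10) and cell type markers. Alternatives were no filter beyond 1 UMI, each library left out, cells gated singly by markers, Scrublet calls left out, thinning to 2000 UMIs, a replicate block and TMM for CD11b+ cells. Added after seeing the data were leaving out cells with markers of another class (3 macrophage markers in T cells, 1 T cell marker in dendritic cells) and crossed replicate pairs as a block. The fits were tested on simulated data. Python 3.11.15 with numpy 2.4.6, pandas 2.3.3, scipy 1.17.1 and matplotlib 3.10.9 was used, with gene coordinates from GENCODE M21.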

Additional observations from a re-analysis of the deposited data

Results flagged for a closer look

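The shSELP difference itself differed between macrophage-like and microglia-like cells for 169 of 10576 genes (1.6%) by the interaction term at an adjusted p under 0.05 in edgeR, which is a difference between groups of cells under the same contrast. Of the 8 members tested 0 were among them, with 1 at an unadjusted p under 0.05 (Icos) and 0 called by DESeq2. The count was 66 in DESeq2 and ranged from 64 to 288 with 1 library left out.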

How the results depend on the processing

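Counts of called genes and values of single genes were judged by different rules, so their tallies do not compare. Of 117 values of such counts under alternatives 48 stayed within 1.5 times and 69 moved. Of 488 values of single genes, members and other costimulation genes, 452 kept their direction and side of the threshold or stayed within their spread, 18 fell below the threshold, 14 passed it, 3 moved and 1 reversed, which was Cd80 in Foxp3 against conventional CD4 T cells at -0.09 without shNC 2 (up to 0.71 without shSELP 1). With DESeq2 the counts were 12 in CD8 T cells, 185 in macrophage-like cells, 363 for Foxp3 and 641 for CD8 against conventional CD4 T cells, 1109 for mature dendritic cells, and 66 and 1 for the difference in response of myeloid and of T cells. With no filter beyond 1 UMI they were 211, 38 and 20 in CD8, conventional CD4 and Foxp3 T cells, 841, 570 and 140 in macrophage-like, microglia-like and dendritic-cell-like cells, and 334 and 17 for the differences in response. With cells gated singly they were 5 in CD8 and 1 in conventional CD4 T cells, 58, 47 and 0 in the 3 myeloid classes, 1214 for mature dendritic cells and 58 for the myeloid difference in response. With thinned cells they were 1 in CD8 T cells, 1 in macrophage-like cells, 25 in microglia-like cells, 333 and 492 for the T cell subsets, 784 for mature dendritic cells and 65 for the myeloid difference in response. Without cells carrying markers of another class, an alternative added after seeing the data, 1 gene was called in CD8 T cells and 0 in dendritic-cell-like cells. As a replicate block, 28 and 6 were called in conventional CD4 and Foxp3 T cells and 253 and 213 in macrophage-like and microglia-like cells, and crossed pairs, added after seeing the data, gave 79 in CD8 T cells, although replicate numbers did not pair the libraries, with correlations between paired libraries of -0.13 to 0.11. With each library left out in turn, the lone library of a group being assumed to vary like the others, counts ran from 0 to 392 in CD8, 12 to 31 in conventional CD4 and 2 to 55 in Foxp3 T cells, 0 to 222 in macrophage-like, 24 to 263 in microglia-like and 23 to 145 in dendritic-cell-like cells, 535 to 726 for Foxp3 and 681 to 1362 for CD8 against conventional CD4 T cells, 1454 to 1799 for mature dendritic cells, and 64 to 288 and 10 to 58 for the differences in response. The cause was not tested for any of these. In the report these counts were 2, 0, 0, 95, 109 and 15 in the 6 classes, 821, 1197 and 1977 for the subsets and 169 and 0 for the differences. In CD11b+ cells the number of genes past the fold stayed within 1.5 times for macrophage-like cells, at 1085 to 1246 against 1270, Icosl in macrophage-like cells kept a ratio of 0.526 to 0.586, and Cd40 in microglia-like cells moved from 1.02 to 0.336 with cells gated singly and 2.05 with thinned cells. Further limits remain. Icos in mature dendritic cells fell under the filter in most alternatives and gave a value in 3 of 10, for a reason that was not tested. Cells under 2000 UMIs, 158, 170, 241 and 198 in mixed and 395 and 388 in CD11b+ libraries, were left out by thinning. Pools of brains and 2 libraries per group limit what any difference between groups stands for.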
